A study of Mus musculus with 18 samples.

Results

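The genes described here make up the degradative machinery of the lysosome: 17 genes of the vacuolar proton pump, 9 genes of lysosomal membrane proteins and 23 genes of hydrolases and a hydrolase activator, 49 in all. They were picked by name. Each was read from the brightest probe set annotated to that gene alone, and 46 of the 49 had one, among 22180 genes measured. The pump proteolipid gene Atp6v0c, the beta-galactosidase gene Glb1 and the symbol Tmem55b were not analysed here. For Glb1 the annotation held only a probe set shared with another gene. Tmem55b is an older name of Pip4p1, which encodes a phosphoinositide phosphatase of the lysosomal membrane. Pip4p1 was measured under its current name, was called in none of the comparisons and is not counted below.

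The samples were microglia, the resident macrophages of the brain, of untreated and healthy C57Bl/6 mice kept pathogen-free. Cells were enriched on a Percoll gradient and sorted as CD45+ CD11b+ Gr1- events, so that other macrophages with these surface markers could enter the gate. There were 6 groups of 3 arrays: corpus callosum and cortex, each at P3 and P7 (days after birth) and in adults. The labels give neither the age in adults, nor the sex, nor whether an array holds 1 animal or a pool, so p-values measure only the spread between these samples, which may be technical. The series title links microglia to the formation of myelin, and corpus callosum is a white matter tract that is myelinated after birth.

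A lysosome digests what a cell takes up or recycles. The proton pump acidifies it: its V1 sector, outside the membrane, splits ATP, and its V0 sector, within the membrane, carries the protons. Most hydrolases work only at the acid pH that the pump maintains, and membrane proteins such as the LAMPs line and protect the organelle. In microglia this machinery serves the digestion of dead cells, synapses and myelin debris. Many of these genes are known targets of the transcription factors TFEB and TFE3, which bind a CACGTG core in the element named CLEAR.

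Promoter letters are shown to let the reader see how often and where this core stands in the members. RefSeq windows of GRCm38.p6, from 250 bases before to 50 bases after an annotated start, were given for 42 of the 49 members, in 50 windows of 300 bases. CACGTG, which reads the same on both strands, was present in the windows of 14 of the 42 genes (33.3%), against 8.09% of 27025 genes in the table. The longer TCACGTG, searched on both strands and containing CACGTG, was present in the same 14 genes, against 4.29% of all genes. All 21 cores were flanked as TCACGTG on a strand, and their first bases lay between -227 and +4 of the start. Stretches of 6 of these genes follow in the gene's own direction, with each match in capitals.
Atp6v0b: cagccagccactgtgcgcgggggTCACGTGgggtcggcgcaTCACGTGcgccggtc
Gla: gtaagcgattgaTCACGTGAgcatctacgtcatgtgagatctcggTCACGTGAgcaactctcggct
Gaa: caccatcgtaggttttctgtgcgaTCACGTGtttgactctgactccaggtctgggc
Sgsh: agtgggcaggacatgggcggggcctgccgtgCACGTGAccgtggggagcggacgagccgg
Lamp1: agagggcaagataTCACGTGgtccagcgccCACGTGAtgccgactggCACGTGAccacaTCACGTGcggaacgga
Mcoln1: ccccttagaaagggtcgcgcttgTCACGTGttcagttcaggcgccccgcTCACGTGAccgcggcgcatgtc
Atp6v0b lies on the minus strand at chr4:117887334-117887389, Gla on the minus strand at chrX:134601180-134601245 and Gaa on the plus strand at chr11:119267798-119267853. Sgsh lies on the minus strand at chr11:119355511-119355570, Lamp1 on the plus strand at chr8:13159086-13159160 and Mcoln1 on the plus strand at chr8:3500424-3500494. Lamp1 held the most cores of any member window, 4, and Gla, Mcoln1, Atp6v0b and Cln3 held 2 each. The core was present in 6 of the 17 members with a window that fell in adult corpus callosum (35.3%) and in 7 of the other 23 measured members with a window (30.4%). A match is a string of letters in this window and not a measured binding site.

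The values are levels as deposited by the authors, taken as log2. Mean levels of the 46 members lay between 5.82 and 11.77 log2 units, all above 5.74, the highest of the array medians. The spread between the 3 arrays of a group had a median SD of 0.12 and reached 0.57, for Atp6v0a2 in corpus callosum at P3. Group means of 9 microglial markers lay between 7.62, for Tmem119 in corpus callosum at P3, and 12.35, for Cx3cr1 in adult corpus callosum. P2ry12, an ADP receptor used as a microglial marker, averaged 11.60, 11.74 and 12.21 in corpus callosum at P3, P7 and in adults, and 11.84, 12.05 and 12.20 in cortex. Many markers of other myeloid cells reached the median of at least 1 array, which is not a detection call. Only 1 of 10 markers of border-associated macrophages (Cd163) and 1 of 9 of monocytes (Ly6c2) lay below the median on every array. Of 10 neutrophil markers 5 did, Ly6g among them. Mrc1, a mannose receptor of border-associated macrophages, averaged 10.57 in corpus callosum and 11.05 in cortex at P7. The 2 adult replicate 1 arrays had the lowest mean correlation with the other 17 arrays, 0.953 in corpus callosum and 0.956 in cortex.

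Lysosomal transcripts were mostly highest in corpus callosum at P3 or P7. Of the 46 members, 13 had their highest group mean in corpus callosum at P3, 19 at P7 and 3 in adults. In cortex 0 members had it at P3, 3 at P7 and 8 in adults. Of the members 28.3% were highest in corpus callosum at P3 and 41.3% at P7, against 18.19% and 12.74% of all 22180 genes (19.32% and 15.75% of genes that passed the filter on low values). The lowest mean fell in adult corpus callosum for 19 members (41.3%, against 18.16% of all genes and 25.61% of those that passed the filter). It fell in cortex at P3 for 16 (34.8%, against 18.51% and 19.09%). In these rankings P3 cannot be told apart from the array set, because P3 arrays carry another label prefix than the others.

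**Figure D1:**
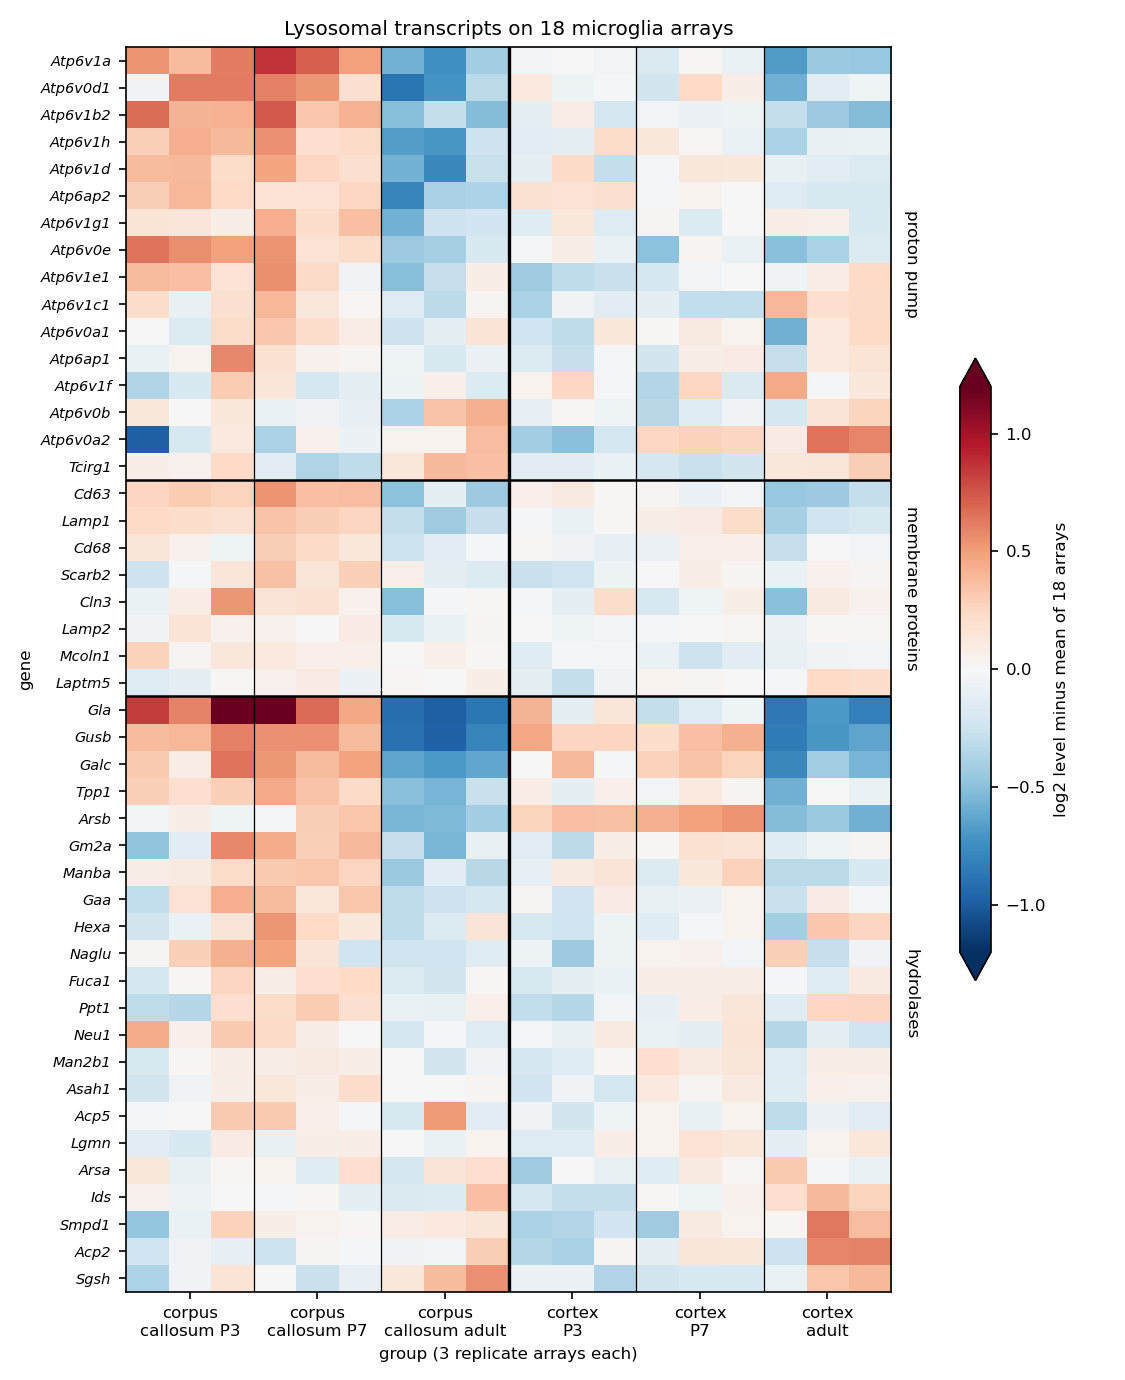
Each row is one of the 46 measured genes and each column one of 18 arrays; colour is the log2 level minus the gene's mean over all arrays, with values beyond 1.2 shown at the end colours. Rows are ordered within each class by the adult-minus-P7 difference in corpus callosum. The upper rows of each class are red in corpus callosum at P3 and P7 and blue in adult corpus callosum; Tcirg1 and Sgsh, at the foot of their classes, are red on all adult corpus callosum arrays, and Tcirg1 is blue there at P7 but not at P3.

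The first question is how lysosomal transcripts differ between corpus callosum and cortex at P7, while myelin is being formed. Calls here and later are limma tests at an adjusted p under 0.05, adjusted over all 22180 genes; ± after a difference is its standard error, and n is 3 arrays per group. There were 2 members called higher in corpus callosum and 0 lower, against 0.446% of all genes called higher and 0.00451% called lower (0.972% higher when genes with low values were left out of the fit). Atp6v1a, the catalytic subunit of the V1 sector, had 8.81, 8.67 and 8.45 in corpus callosum, against 7.78, 7.97 and 7.87 in cortex. All 3 corpus callosum arrays lay above all 3 cortex arrays. The difference was 0.77 ± 0.12 (1.71-fold, limma adjusted p 0.00373), and the call was kept under every alternative processing tried, with adjusted p up to 0.0427.

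Gla, alpha-galactosidase A, which cuts terminal galactose from glycolipids such as globotriaosylceramide, had 8.52, 8.01 and 7.80 in corpus callosum and 7.06, 7.19 and 7.29 in cortex. Again the arrays did not overlap. The difference was 0.94 ± 0.19 (1.91-fold, limma adjusted p 0.0345). This call was lost when any P7 array other than corpus callosum replicate 3 was left out, and with replicate numbers as a block, with adjusted p up to 0.326. Fewer cells of a type and less RNA per cell cannot be told apart in such bulk samples.

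Other members leaned the same way without passing the test. In all, 38 of 46 lay above 0 at P7, with a median of 0.17 against 0.00 for all genes. Arrays did not overlap in 20 members with corpus callosum above and in 2 with it below, against 8.97% and 7.76% of all genes, and 11 members had an unadjusted p under 0.05, against 6.88% of all genes. The lean was largest in the V1 sector, where 8 of 8 subunits were above 0 with a median of 0.36, against 0.13 for 6 V0 subunits, 0.19 for 8 membrane proteins and 0.11 for 22 hydrolases. Next after the called genes came Atp6v1b2, the other nucleotide-binding V1 subunit (0.55 ± 0.13, limma adjusted p 0.0952), and Cd63, a tetraspanin of late endosomes and lysosomes (0.44 ± 0.11, limma adjusted p 0.128). The V0 gene Atp6v0a2 pointed furthest the other way at -0.39. Arsb, arylsulfatase B, which removes sulfate from dermatan sulfate, did so at -0.28. These were the 2 members whose corpus callosum arrays all lay below those of cortex.

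At P3 the same question gave 0 members called, against 0.352% of all genes called higher and 0.153% called lower. Yet 15 members had an unadjusted p under 0.05, against 12.8% of all genes, and 44 of 46 lay above 0 with a median of 0.17 (0.01 for all genes). Arrays did not overlap in 15 members with corpus callosum above and in 1, Arsb, with it below, against 9.17% and 6.67% of all genes. The closest to the threshold were Atp6v1b2 (0.58 ± 0.13, limma adjusted p 0.0550), Atp6v1a (0.54 ± 0.12, 0.0612), Gla (0.80 ± 0.19, 0.0736), the V1 peripheral stalk subunit Atp6v1e1 (0.64 ± 0.16, 0.0779) and the V0 subunit Atp6v0e (0.57 ± 0.15, 0.0885). These 5 passed when genes with low values were left out of the fit, in which 1.17% of the genes kept were called higher.

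In adults 0 members were called between the regions, against 0.00451% of all genes called higher and 0.0% called lower, and 7 had an unadjusted p under 0.05, against 8.51% of all genes. The lean was the other way: 35 of 46 members lay below 0, with a median of -0.09 against 0.01 for all genes. All 8 V1 subunits lay below 0 (median -0.33), from -0.03 for Atp6v1b2 to -0.42 ± 0.14 (limma adjusted p 0.447) for Atp6v1c1, which couples V1 to V0. Arrays did not overlap in 5 members with corpus callosum below, of which 4 were pump genes, and in 1 with it above, against 6.07% and 6.73% of all genes.

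**Figure D2:**
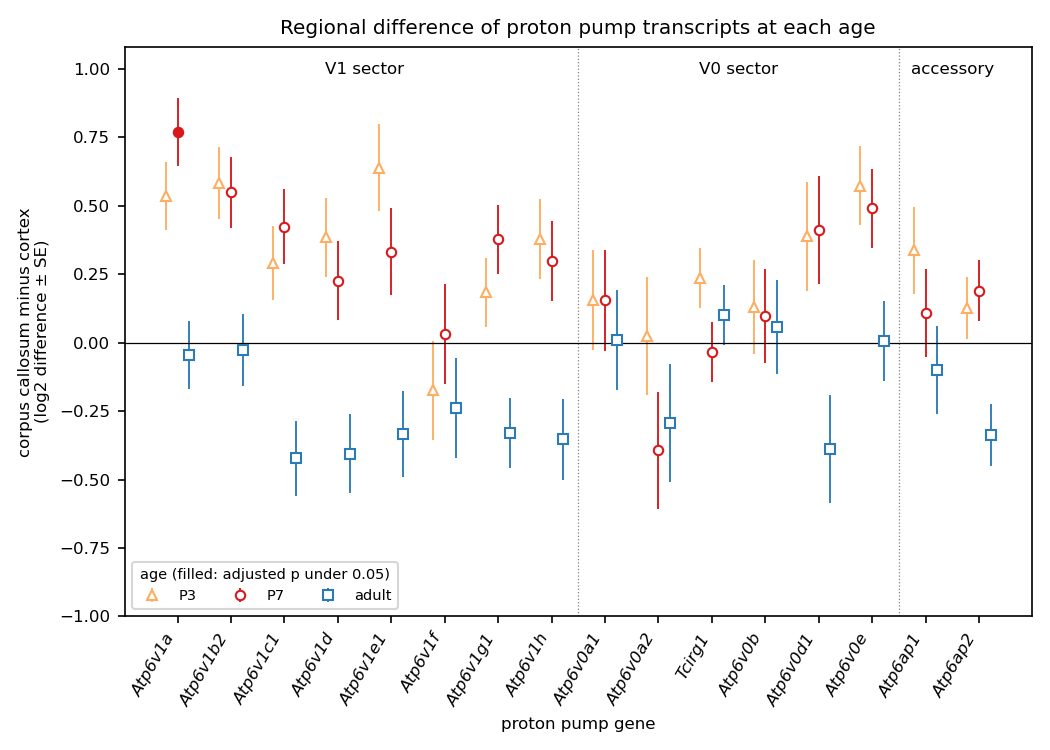
The vertical axis is the log2 difference of corpus callosum minus cortex, with its standard error, for 16 pump genes at P3 (triangles), P7 (circles) and in adults (squares); filled symbols passed the test. At P3 and P7 most V1 subunits lie above 0 and in adults all 8 lie below it; Atp6v1a at P7 is the only filled symbol.

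Markers of other cells also differed between the regions at these ages. The log2 of the summed level of 9 monocyte markers was 10.51 to 11.00 in corpus callosum at P7, against 9.94 to 10.37 in cortex. At P3 it was 10.78 to 11.51 against 10.02 to 10.27. Lyz2, a bright one of the 9, averaged 10.37 against 9.62 at P7 and 10.53 against 9.63 at P3. The monocyte list was split, with 6 markers above 0 and 3 below at P7, and 7 and 2 at P3. The lowest were Plac8 at P7 (-0.70) and Ly6c2 at P3 (-0.68). For 10 border-associated macrophage markers the log2 sum was 11.73 to 11.77 against 11.64 to 11.74 at P7. At P3 it was 11.05 to 11.52 against 11.07 to 11.32. Among the markers of both lists Folr2 was called higher in corpus callosum at P7 (1.95 ± 0.22), and Folr2, Ms4a7 and Lyz2 at P3. The border-associated macrophage list was split too, with 5 of 10 markers below 0 at P7 and 1 at P3. Mrc1 was the lowest at both ages (-0.48 and -0.72). Neuron markers were lower in corpus callosum at P3, at 9.03 to 9.64 against 9.98 to 10.22. Of 9 microglial markers 8 lay below 0 at P7 and 6 at P3, with 0 called at either age. Their arrays did not overlap with corpus callosum below in 6 at P7 and in 2 at P3, against 7.76% and 6.67% of all genes. With corpus callosum above they did not overlap in 0 and 2, against 8.97% and 9.17%. The part of other cells in the lysosomal differences was not tested.

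The largest changes came with age, and this comparison asks what the lysosomal programme of adult microglia is relative to P7. In adult corpus callosum 20 of 46 members fell and 2 rose. These are 43.5% and 4.35%, against 10.7% and 6.56% of all genes (19.8% and 10.9% when genes with low values were left out of the fit). The members' median was -0.33, against 0.05 for all genes and -0.01 for the genes that passed the filter on low values. In 28 members all adult arrays lay below all P7 arrays and in 3 above, against 17.0% and 17.7% of all genes. Without each of the 6 arrays in turn 17 to 21 members were called. After quantile normalization was applied again, which removes the narrower spread of the adult arrays, 17 members fell and 1 rose. The share of all genes called under that setting is not given here. The members' median was then -0.21, against -0.03 for all genes, so their distance from all genes was smaller than before.

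The proton pump fell most broadly, in 9 of 16 genes. Atp6v1a had 7.38, 7.22 and 7.53 in adult corpus callosum, against 8.81, 8.67 and 8.45 at P7, a difference of -1.26 ± 0.12 (2.40-fold lower, limma adjusted p 7.78e-07). Atp6v1b2 had 9.31, 9.54 and 9.30 in adults and 10.57, 10.15 and 10.24 at P7 (-0.93 ± 0.13, 4.87e-05). Atp6v0d1, the V0 subunit that joins the membrane ring to the V1 stalk, had 7.39, 7.55 and 7.94 in adults and 8.87, 8.80 and 8.45 at P7 (-1.08 ± 0.20, 0.000672).

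Every adult array of these 3 genes lay below every P7 array. Lower too were Atp6v1h, a regulatory V1 subunit (-0.86), Atp6v1d of the rotor stalk (-0.84), the accessory protein gene Atp6ap2, also known as the prorenin receptor (-0.71), the peripheral stalk gene Atp6v1g1 (-0.68) and Atp6v0e (-0.65). Atp6v1e1 was called at -0.49 ± 0.16 (limma adjusted p 0.0394), although its arrays overlapped, and this call was lost without adult or P7 replicate 1 or 2 (adjusted p up to 0.208) and after repeated quantile normalization. By sector, 6 of 8 V1 subunits fell, 2 of 6 V0 subunits and 1 of 2 accessory genes. Among V1 subunits Atp6v1c1 (-0.33, limma adjusted p 0.109) and the rotor stalk gene Atp6v1f (0.01, 0.987) were not called. Different probe sets of Atp6v1b2 (-0.93 and -1.37) and of Atp6v1g1 (-0.68, -0.69 and -0.80) agreed in direction.

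The subunit a paralogs of the V0 sector, which form the proton path and direct the pump to its membrane, include the 1 pump gene that rose in adult corpus callosum. Tcirg1 encodes a3, the paralog best known from osteoclasts. It had 8.91, 9.16 and 9.13 in adult corpus callosum, against 8.65, 8.41 and 8.47 at P7, a rise of 0.56 ± 0.11 (1.47-fold, limma adjusted p 0.00116). It had 8.91, 8.92 and 9.07 in adult cortex, against 8.57, 8.51 and 8.55 at P7, a rise of 0.42 ± 0.11 (1.34-fold, limma adjusted p 0.0156), which was lost without cortex P7 replicate 2 or 3 or adult replicate 3 (up to 0.0810).

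Atp6v0a1 had 8.60, 8.75 and 9.02 in adult corpus callosum and 9.18, 9.07 and 8.94 at P7. In cortex it had 8.28, 8.97 and 9.10 in adults and 8.87, 8.96 and 8.90 at P7. Its groups overlapped in both regions, with differences of -0.27 ± 0.18 and -0.13 ± 0.18 (limma adjusted p 0.358 and 0.790).

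Atp6v0a2 had 8.45, 8.45 and 8.78 in adult corpus callosum and 8.03, 8.46 and 8.33 at P7. In cortex it had 8.50, 9.06 and 8.99 in adults and 8.65, 8.68 and 8.67 at P7. Its differences were 0.29 ± 0.22 and 0.19 ± 0.22 (limma adjusted p 0.421 and 0.728), so that of the 3 paralogs only Tcirg1 was called. Whether the paralogs differ from each other in their response to age was not tested.

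Among hydrolases 8 of 22 fell in adult corpus callosum and 1 rose. The largest difference was in Gla, with 6.43, 6.36 and 6.47 in adults, against 8.52, 8.01 and 7.80 at P7 (-1.69 ± 0.19, 3.23-fold lower, limma adjusted p 5.20e-06). Gusb, beta-glucuronidase, which trims glycosaminoglycans, had 8.70, 8.62 and 8.80 in adults and 10.14, 10.15 and 9.97 at P7 (-1.38 ± 0.11, 9.81e-08). Galc, which degrades the myelin lipid galactosylceramide, had 6.82, 6.75 and 6.83 in adults and 7.97, 7.83 and 7.93 at P7 (-1.11 ± 0.14, 2.11e-05).

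In each of these 3 enzymes every adult array lay below every P7 array. The protease gene Tpp1 (-0.78), Arsb (-0.70), the beta-mannosidase gene Manba (-0.61) and, less firmly, the ganglioside activator Gm2a (-0.68 ± 0.19, limma adjusted p 0.0196) and the acid alpha-glucosidase gene Gaa (-0.53 ± 0.16, 0.0237) fell as well. Gm2a was lost without P7 replicate 1 or 3 or adult replicate 2 (adjusted p up to 0.0965) and after repeated quantile normalization, and Gaa without P7 replicate 1 or 3 or adult replicate 1 or 2 (up to 0.0890). The heparan sulfate sulfatase gene Sgsh had 6.08, 6.33 and 6.50 in adults and 5.96, 5.68 and 5.85 at P7, a rise of 0.48 ± 0.16 (limma adjusted p 0.0451) that was lost without any of the 6 arrays other than adult replicate 1 (up to 0.163) and after repeated quantile normalization. The other 13 hydrolases were not called, among them the cysteine protease gene Lgmn (-0.03 ± 0.11) and the ceramidase gene Asah1.

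Of the membrane proteins 3 of 8 fell in adult corpus callosum. Cd63 differed by -0.77 ± 0.11 (limma adjusted p 6.99e-05), Lamp1, a main coat glycoprotein of the lysosomal membrane, by -0.63 ± 0.10 (0.000170), and Cd68, the macrophage sialomucin, by -0.35 ± 0.11 (0.0353). Cd68 lost its call without adult or P7 replicate 1 or 2 and after repeated quantile normalization (adjusted p up to 0.388). Lamp2, the companion of Lamp1 (-0.13 ± 0.10, limma adjusted p 0.418), and Laptm5, a lysosomal protein of blood cell lineages (0.00 ± 0.11, 0.984), were not called. In all, 17 of the 22 called members were called under every alternative tried; the others were Atp6v1e1, Cd68, Gaa, Gm2a and Sgsh.

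**Figure D3:**
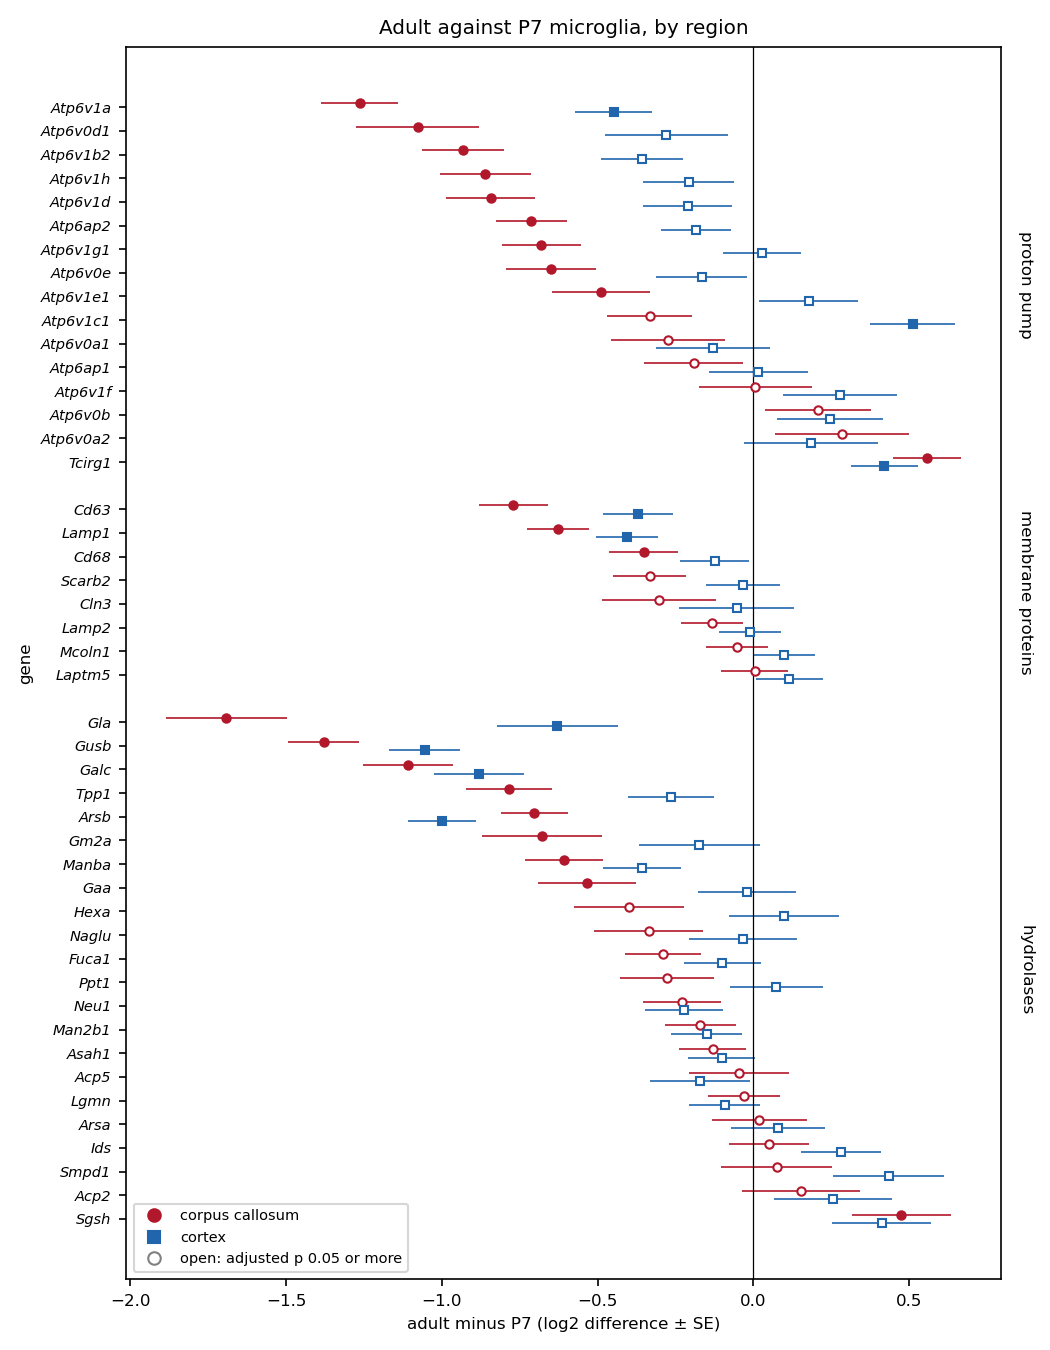
The horizontal axis is the log2 difference of adult minus P7 with its standard error, for each of 46 genes in corpus callosum (circles) and cortex (squares); filled symbols passed the test. Circles lie left of squares for 40 of 46 genes, and Gla in corpus callosum has the largest difference, -1.69.

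In cortex fewer members changed: 7 fell and 2 rose, against 6.15% and 4.05% of all genes (11.8% and 7.75% when genes with low values were left out of the fit). Without both adult replicate 1 arrays the balance among called members turned, to 3 lower (Arsb, Galc and Gusb) and 4 higher (Tcirg1, Acp2, Atp6v0b and Sgsh). The shares of all genes called in that fit are not given here, so whether all genes turned likewise is not shown. The members' median was -0.10, against 0.03 for all genes. After repeated quantile normalization it was -0.01, against 0.01 for all genes. Arrays did not overlap in 13 members with adults below and 4 with adults above, against 13.7% of all genes either way.

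Gusb had 8.76, 8.90 and 8.97 in adult cortex, against 9.81, 9.96 and 10.02 at P7 (-1.06 ± 0.11, limma adjusted p 3.24e-06). Arsb had 10.82, 10.90 and 10.76 in adults and 11.77, 11.83 and 11.88 at P7 (-0.999 ± 0.11, 3.66e-06). Galc had 6.67, 7.03 and 6.89 in adults and 7.72, 7.79 and 7.71 at P7 (-0.88 ± 0.14, 0.000349). These 3 hydrolases were well separated and kept their calls under every alternative.

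Gla had 6.48, 6.65 and 6.52 in adult cortex and 7.06, 7.19 and 7.29 at P7 (-0.63 ± 0.19, limma adjusted p 0.0456). Atp6v1a had 7.27, 7.51 and 7.49 in adults and 7.78, 7.97 and 7.87 at P7 (-0.45 ± 0.12, 0.0237). Lamp1 had 10.79, 10.95 and 10.99 in adults and 11.26, 11.28 and 11.41 at P7 (-0.41 ± 0.10, 0.0106).

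None of these 3 genes overlapped between the ages, and Cd63 fell by 0.37 ± 0.11 (limma adjusted p 0.0412). Each of the 4 calls was lost without at least 1 single array, and over all alternatives the adjusted p reached 0.160 for Gla, 0.111 for Atp6v1a, 0.0869 for Lamp1 and 0.165 for Cd63. Without cortex P7 replicate 2, 4 members were called, and without cortex P7 replicate 3, 3 were. All 7 members that fell in cortex were among the 20 that fell in corpus callosum.

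Atp6v1c1 rose in cortex, with 9.69, 9.49 and 9.52 in adults against 9.18, 8.99 and 8.99 at P7 (0.51 ± 0.14, limma adjusted p 0.0196). This call was lost without cortex adult replicate 1 or P7 replicate 2 or 3, and over all alternatives its adjusted p reached 0.0858. In corpus callosum it had 9.13, 8.98 and 9.32 in adults and 9.69, 9.43 and 9.31 at P7. The adult arrays lay above those of P7 in cortex and overlapped them in corpus callosum.

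**Figure D4:**
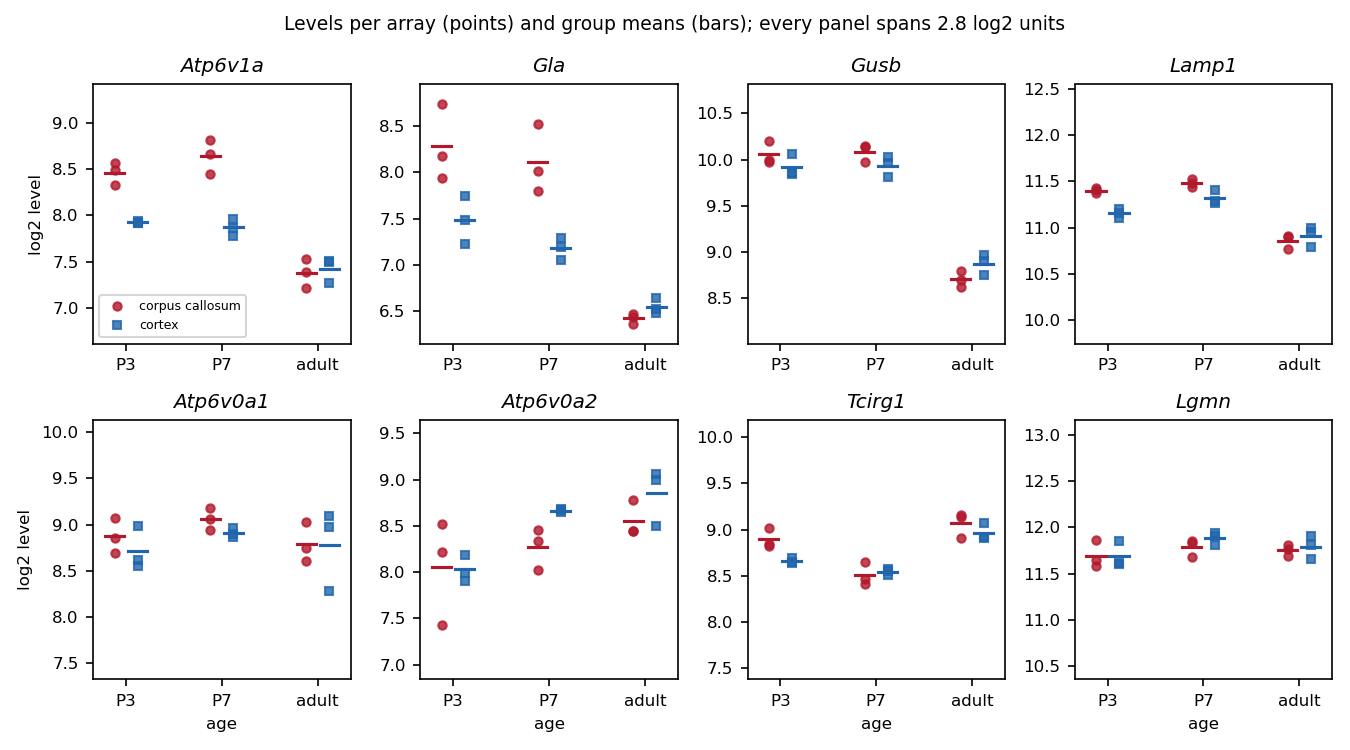
Each panel shows the log2 level of one gene on 18 arrays (points) with group means (bars), for corpus callosum (circles) and cortex (squares) at P3, P7 and in adults; all panels span the same number of log2 units. Atp6v1a and Gla are highest in corpus callosum at P3 and P7 and lie close together in adults, Gusb falls in both regions, Tcirg1 rises from P7 to adults in both, and Lgmn stays within 11.58 to 11.94.

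The change with age leaned lower in corpus callosum than in cortex for 40 of 46 members (14 of 16 pump genes, 18 of 22 hydrolases and 8 of 8 membrane proteins), against 48.76% of all genes. Tested gene by gene as the regional difference in adults minus that at P7, 0 members were called, against 0.203% of all genes, while 14 had an unadjusted p under 0.05 (against 7.34% of all genes). The smallest adjusted p was that of Atp6v1a (-0.82, limma adjusted p 0.0720). The median of this difference was -0.55 in the pump, -0.66 in its V1 sector, -0.23 in hydrolases and -0.22 in membrane proteins, against 0.01 over all genes. For adults against P3, 0 members were called, against 0.18% of all genes, and 16 had an unadjusted p under 0.05 (against 13.7%), with Atp6v1e1 closest (-0.97, limma adjusted p 0.0851). For P7 against P3, 0 members were called and 0 had an unadjusted p under 0.05, against 0.0% and 5.68% of all genes. The 3 tests share the groups they compare.

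**Figure D5:**
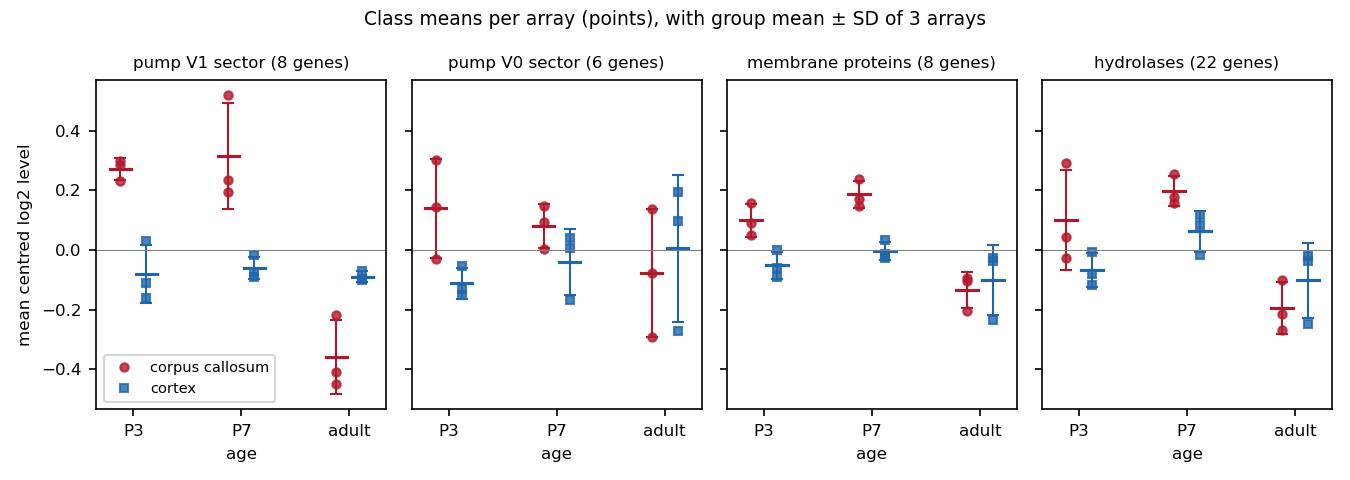
Points are the mean, on one array, of the log2 levels of a class after each gene was centred on its mean over 18 arrays; bars are the mean ± SD of 3 arrays, for corpus callosum (circles) and cortex (squares). The V1 sector averages 0.27, 0.32 and -0.36 in corpus callosum at P3, P7 and in adults, and stays between -0.09 and -0.06 in cortex.

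Averaged over genes, the V1 sector stood at 0.27 ± 0.04, 0.32 ± 0.18 and -0.36 ± 0.12 (SD, n = 3) in corpus callosum at P3, P7 and in adults, on a scale centred gene by gene over all arrays. In cortex it stood at -0.08 ± 0.10, -0.06 ± 0.04 and -0.09 ± 0.02. The P7 mean of corpus callosum was raised by replicate 1, at 0.52 against 0.23 and 0.19 on the other arrays. The V0 sector varied more between arrays, at 0.14 ± 0.17, 0.08 ± 0.07 and -0.08 ± 0.21 in corpus callosum and -0.11 ± 0.05, -0.04 ± 0.11 and 0.01 ± 0.25 in cortex, and its adult arrays overlapped those of P7 in both regions.

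Between P7 and P3 no member passed the test. In corpus callosum 0 were called, against 0.325% of all genes called higher and 0.415% lower, and 3 had an unadjusted p under 0.05 (3149 of all 22180 genes did). In cortex 0 were called, against 0.28% and 0.604%, and 3 had an unadjusted p under 0.05 (2892 of all genes did). The smallest adjusted p was that of Tcirg1 in corpus callosum (-0.39 ± 0.11, limma adjusted p 0.103), where Ppt1 differed by 0.39 ± 0.15 (0.240), and of Atp6v0a2 in cortex. Atp6v0a2 differed there by 0.64 ± 0.22 (limma adjusted p 0.192). The P3 arrays carry another label prefix than the others, so age and array set cannot be told apart here.

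Genes of other lysosomal lists were counted in adult corpus callosum in the same way, where 10.7% of all genes were called lower (19.8% with the filter on low values) and 6.56% higher. These lists were not tested as lists, and counts near those shares say nothing about them. Of 6 genes for mannose 6-phosphate tagging and sorting, which route hydrolases to the lysosome, 3 fell: Gnptab (-1.14 ± 0.15), Gnptg (-0.72) and M6pr (-0.69). Of 10 genes of the Ragulator and nutrient sensing list 4 fell, led by Rragd (-1.33 ± 0.22), Rragc (-1.01 ± 0.14) and Lamtor2 (-0.96 ± 0.14). Rragd averaged 5.01 in adult corpus callosum, below the array medians, so the size of its difference is uncertain. Of 18 transporters and channels 7 fell, led by the sialic acid exporter Slc17a5 (-0.72), the chloride exchanger Clcn7 (-0.70) and Slc66a1 (-0.67), and 2 rose, Slc29a3 (0.60) and Slc11a1 (0.47).

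Among 13 other hydrolases and activators 3 fell, Galns (-1.16 ± 0.17), the acid lipase gene Lipa (-0.89 ± 0.15) and Hyal2 (-0.39), and the lysosomal phospholipase gene Pla2g15 rose (0.61 ± 0.10). Among 10 genes of pump assembly and regulation 4 fell, led by Ccdc115 (-0.86), Wdr7 (-0.66) and Dmxl1 (-0.60). In cortex, where 6.15% of all genes were called lower (11.8% with the filter) and 4.05% higher, the same lists had 1 of 6 lower (Gnptab) and 1 higher (Sort1), 1 of 10 lower (Lamtor2) and 1 higher (Lamtor4), 0 of 18 lower and 1 higher (Slc11a1), 2 of 13 lower (Galns and Sumf1) and 2 higher (Pla2g15 and Aga), and 1 of 10 lower (Ccdc115). At P7, Lipa (0.84 ± 0.15), Slc17a5 (0.66 ± 0.13), Rragd (1.22 ± 0.22) and Rragc (0.70 ± 0.14) were higher in corpus callosum than in cortex, and at P3 Lipa and Rragc were. The cortex mean of Rragd at P7, 5.13, lay below the array medians, so the size of that difference is uncertain too.

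Of 8 pump subunits with restricted tissue expression, Atp6v0d2 alone was called. It is the second form of the d subunit, best known from osteoclasts and some macrophages. It averaged 8.96 in corpus callosum against 4.55 in cortex at P7 (4.40 ± 0.46, limma adjusted p 5.31e-05), and 7.33 against 4.52 at P3 (2.81 ± 0.46, 0.00749). In adult corpus callosum it averaged 3.92, against 8.96 at P7 (-5.03 ± 0.46, 3.29e-07). Levels below the array medians cannot be told from background, so the size of these differences is uncertain. The common form Atp6v0d1, a member, differed by 0.41 between the regions at P7 and was not called.

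Among the MiT/TFE factors, which drive lysosomal genes through the CACGTG core, Mitf averaged 8.18 in corpus callosum against 6.87 in cortex at P7 (1.31 ± 0.20, limma adjusted p 0.00248). It fell in adult corpus callosum (-0.66 ± 0.20, 0.0292) and rose in adult cortex (0.74 ± 0.20, 0.0219); the test of this difference between the regions missed the threshold (-1.39 ± 0.28, 0.0535). Tfec fell in adults of both regions (-2.35 ± 0.16 in corpus callosum, limma adjusted p 8.93e-09, and -2.05 ± 0.16 in cortex, 3.60e-08). Tfeb and Tfe3 were called in none of these comparisons.

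Markers of cell types moved with age as well. The log2 summed level of 10 border-associated macrophage markers was 9.76 to 9.88 in adult corpus callosum, against 11.73 to 11.77 at P7, and 9.65 to 10.05 in adult cortex, against 11.64 to 11.74 at P7. In corpus callosum 6 of the 10 fell and in cortex 4, led by Mrc1 (-4.44 ± 0.27 and -4.23 ± 0.27). Monocyte markers summed to 9.73 to 9.86 in adult corpus callosum, against 10.51 to 11.00 at P7. In adult cortex they summed to 9.39 to 9.93, against 9.94 to 10.37 at P7. Lyz2, which averaged 10.37 at P7 and 9.16 in adult corpus callosum, weighs heavily in these sums. The list was split. Lyz2, Cd44 and Itga4 fell in corpus callosum, and Lyz2 and Plac8 in cortex. Ccr2 rose in both (0.44 ± 0.15 and 0.77 ± 0.15), from P7 means below the array medians. Of 9 microglial markers 6 rose in adult corpus callosum and 3 in adult cortex, with Tmem119 highest (1.56 ± 0.22 and 1.03 ± 0.22). Of these 3 marker lists Folr2 alone changed differently between the regions (-1.56 ± 0.31, limma adjusted p 0.0459). Markers of other brain cells moved as well. Neuron markers summed to 8.77 to 8.88 in adult cortex, against 9.29 to 9.39 at P7, and Gap43 (-1.56 ± 0.18), Tubb3 (-0.98 ± 0.23) and Stmn2 (-0.93 ± 0.21) fell there. Of 10 neuron markers 4 lay above 0 in adult cortex, Slc17a7 highest (0.23). In corpus callosum neuron markers summed to 8.83 to 9.04 in adults, against 9.02 to 9.15 at P7, with none called. The astrocyte marker Slc1a3 rose in adult corpus callosum (0.96 ± 0.22) and adult cortex (1.79 ± 0.22). Aqp4 was called higher in adult cortex (0.73 ± 0.21), although it lay below the median on every array. Of 7 astrocyte markers 2 lay below 0 in adult cortex, Gja1 lowest (-0.41), and 3 in adult corpus callosum, Aldoc lowest (-0.33). The endothelial marker Pecam1 rose in adult cortex (1.06 ± 0.16), alone among 8 endothelial and mural markers. Of these 8, 3 lay below 0 there, Cdh5 lowest (-0.45). The oligodendrocyte marker Mbp fell in adult corpus callosum (-0.33 ± 0.11), alone among 9 markers of oligodendrocytes and precursors. Of these 9, 5 lay above 0 there, Mag highest (0.41). The part of all these cells in the lysosomal differences was not tested.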

How the data were processed

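Microglia RNA, amplified by the Ovation PicoSL kit and labelled with biotin, was hybridised to Affymetrix arrays, per the labels' protocols. The authors made the values with RMA, per the submitters' processing notes. The sources used here give no version, annotation build or log base; the deposited values were taken as log2 from their range of 0.87 to 13.78. RMA makes the arrays alike, so a change in total RNA per cell cannot be seen, and it gives no value of 0. Array medians lay between 5.58 and 5.74. The number of arrays limits precision.

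Of 41345 probe sets 23521 had 1 gene symbol, 1814 several and 16010 none. RefSeq names (GRCm38.p6) matched 23328. The brightest probe set stood for a gene (1082 genes had several). All 18 arrays entered 1 model with a mean per group in limma 3.58.1 (R 4.3.3; lmFit, contrasts.fit, eBayes; 12 residual degrees of freedom), and p-values were two-sided and Benjamini-Hochberg adjusted over 22180 genes. An exact test of 3 against 3 arrays cannot go below 0.1. The script was tested on simulated data. Alternatives were repeated quantile normalization, a filter on low values (above the array median on at least 3 arrays, 13372 genes), eBayes with trend and robust estimation, the mean of all probe sets, leaving out arrays, and replicate numbers as a block.

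The members, lists and tests were chosen with earlier results of these data known. Per-array values are printed for called members of the regional comparisons, for up to 6 per direction with the largest non-overlapping change with age, and for the subunit a paralogs. Up to 3 called genes per direction are named from each other list. Some genes of the other lists are not reported here.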

Additional observations from a re-analysis of the deposited data

Results flagged for a closer look

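Atp6v0d2, the restricted form of the pump's d subunit, had a regional difference that itself differed between ages: corpus callosum minus cortex was 0.22 in adults and 4.40 at P7, and the test of that change gave -4.19 ± 0.65 (limma adjusted p 0.00933). The gene lies below the array medians in cortex at every age and in adult corpus callosum, so the size of the difference is uncertain.

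The border-associated macrophage marker Folr2 also had a regional difference that changed, by -1.56 ± 0.31 in adults against P7 (limma adjusted p 0.0459). The neuron marker Gap43 had one that changed by 1.56 ± 0.26 in adults against P3 (0.0296).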

How the results depend on the processing

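Of 133 counts of called members recomputed under an alternative, 113 stayed within 1.5 times the value in the report. Each count takes both directions together, so a turn in the balance does not show in it, and a 0 that stayed 0 is included. For most alternatives the share of all genes called is not given here. For single called members, 332 of 394 recomputed calls were kept, 62 were lost and 0 changed direction. Between the regions at P3 the count of 0 became 5 with the filter on low values, 5 with trend and robust estimation, and 1 with the mean of all probe sets. At P7 the count of 2 became 4 with trend and robust estimation (Atp6v1b2 and Cd63 were added). For the regional difference in adults minus that at P7 the count of 0 became 2 with the filter and 2 with trend and robust estimation (Atp6v1a and Atp6v1c1). For adults against P3 it became 1 with each (Atp6v1e1). The filter leaves fewer genes to adjust over. Leaving out 1 array at a time gave 0 to 1 called members between the regions at P3, 1 to 2 at P7 and 0 to 0 in adults. Adult against P7 gave 17 to 21 in corpus callosum and 3 to 8 in cortex, and P7 against P3 gave 0 to 2 in corpus callosum (Gm2a and Ppt1 without corpus callosum P3 replicate 3) and 0 to 0 in cortex. The tests of the regional difference gave 0 to 1 for adults against P7 (Atp6v1a without corpus callosum P7 replicate 3), 0 to 3 for adults against P3 (without corpus callosum adult replicate 3) and 0 to 0 for P7 against P3. Without both adult replicate 1 arrays, 21 members were called in corpus callosum (18 lower) and 7 in cortex (3 lower). Repeated quantile normalization moved the members' median in adults against P7 to -0.21 in corpus callosum and -0.01 in cortex. The medians of all genes were then -0.03 and 0.01. Same-numbered arrays correlated by 0.02 to 0.30 in their deviations, over 0.1 in 4 of 9 pairs. Of 18 arrays 15 correlated best with their own number, so the numbers may mark pairs. The main fit did not take them as pairs, and the replicate block did. With the replicate block 1 member was called between the regions at P7 (Atp6v1a), 22 in adult against P7 corpus callosum and 8 in cortex. Where no cause is named, the cause was not tested. RMA values carry no detection call, so low signals could not be told apart from background.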
